A study of Mus musculus with 2 samples.

Results

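Mature splenic dendritic cells selected for transcripts of Aldh1a2, Itgb8 or both made up 1974 of the 9934 cells kept from the series. They were chosen on measured values. A cell entered the mature gate with at least 1 UMI (unique molecular identifier, 1 counted transcript) of Ccr7 and at least 3 of Fscn1. It also had fewer than 5 UMIs of S100a4, none of Il12b, Cd79a or Nkg7 and at most 2 of Lyz2. Within that gate, the 1974 members had at least 2 UMIs of Aldh1a2 and Itgb8 together. The 1363 cells of the gate with no UMI of either gene are called double-negative. The cells came from spleens of naive mice of the genotype Il7r-cre; Rosa26-lsl-tdTomato, aged 7 to 9 weeks, in which tdTomato marks a cell that has expressed Il7r or descends from one that did. After enrichment for CD11c, tdTomato-positive cells (L-cDC) and tdTomato-negative cells (M-cDC) were sorted and made into 1 droplet library each. The genotype, age and enrichment were shared by both groups, and the number of mice pooled is not given in the sources used here. Il7r expression is typical of lymphoid progenitors but is not restricted to them, so tdTomato records a history of Il7r and not an origin.

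Aldh1a2 encodes RALDH2, the enzyme that oxidises retinaldehyde to retinoic acid, a ligand of nuclear receptors that steers T cells towards gut homing and regulatory fates. Itgb8 encodes the integrin chain that pairs with the alpha v chain and frees TGF-beta from its latent complex. Both activities have been described mainly in gut dendritic cells. Mature dendritic cells express Ccr7, the receptor that guides them to T cell zones, and Fscn1, an actin-bundling protein.

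In mouse build GRCm38, Aldh1a2 lies on chromosome 9 from 71215789 to 71296243 on the plus strand, and Itgb8 on chromosome 12 from 119158022 to 119238802 on the minus strand. The RefSeq promoter windows (build GRCm38.p6) of the genes that chose the cells are shown because they differ in base composition. Each holds 250 bases before and 50 from the annotated start, on the strand of the gene. The start used for Itgb8, and its whole window, lie inside the gene coordinates given above. Capitals mark matches, on either strand, to an NF-kB pattern made of GGG, any 5 bases and CC, and overlapping matches are joined.
Aldh1a2, chr9:71215539-71215838: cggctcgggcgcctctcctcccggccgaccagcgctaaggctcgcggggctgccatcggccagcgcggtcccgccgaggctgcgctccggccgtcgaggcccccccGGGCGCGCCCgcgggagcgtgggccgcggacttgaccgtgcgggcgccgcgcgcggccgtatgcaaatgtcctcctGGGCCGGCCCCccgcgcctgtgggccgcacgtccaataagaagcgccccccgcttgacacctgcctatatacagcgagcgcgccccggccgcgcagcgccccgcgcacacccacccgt
Itgb8, chr12:119238227-119238526: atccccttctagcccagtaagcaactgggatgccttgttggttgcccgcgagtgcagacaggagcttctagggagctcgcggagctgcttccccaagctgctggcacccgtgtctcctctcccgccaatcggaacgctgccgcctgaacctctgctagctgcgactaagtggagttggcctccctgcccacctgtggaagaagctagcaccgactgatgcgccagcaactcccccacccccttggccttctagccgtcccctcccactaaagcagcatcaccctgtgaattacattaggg
The Aldh1a2 window was 78% G and C with 50 CpG dinucleotides, and the Itgb8 window was 60.7% G and C with 13, against a median of 52.7% over the 32851 windows of this length. The NF-kB pattern was present in 50.8% of all windows, so its presence in the Aldh1a2 window is common. Neither window held the AP-1 pattern TGANTCA (7.81% of all windows), an interferon response pattern of GAAA, any 2 bases and GAAA (3.44%), the ETS pattern GAGGAA (28.3%) or the retinoid half-site AGGTCA (16.3%), each searched on both strands.

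Members were 768 of 4086 kept cells of L-cDC, a share of 18.8% (exact Clopper-Pearson 95% interval 17.6 to 20.03%), and 1206 of 5848 of M-cDC, or 20.6% (19.6 to 21.7%). Of the cells in the mature gate they were 42.3% of 1817 in L-cDC (40.0 to 44.6%) and 49.6% of 2429 in M-cDC (47.6 to 51.7%). The share of the mature gate was thus lower in L-cDC, with intervals that did not overlap. These intervals cover counting error only, and with 1 library per group no difference between L-cDC and M-cDC could be set against replicates. The median member held 9364 UMIs and 2210 genes in L-cDC and 8070 UMIs and 2068 genes in M-cDC. Double-negative cells were shallower, with a median of 7218 UMIs in L-cDC and 6261 in M-cDC. No member shared its cell barcode with the other library, while 6 barcodes were shared over all cells. Scrublet, a doublet caller, marked 16 members of L-cDC and 43 of M-cDC, and 4 and 10 double-negative cells of the same libraries.

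The sum of Aldh1a2 and Itgb8 UMIs was graded across the gate. The median member had 4 UMIs in each library (quartiles 2 and 7 in L-cDC, 3 and 8 in M-cDC), and the highest cell had 54 in L-cDC and 62 in M-cDC. Just inside the threshold, 231 cells of L-cDC and 291 of M-cDC had exactly 2 UMIs, and just outside it 409 and 500 had exactly 1. At 10 to 19 UMIs lay 5.17% of the gate in L-cDC (4.20 to 6.29%) and 7.95% in M-cDC (6.90 to 9.09%). No gap separated members from other mature cells, so the threshold divides a range of counts. Counting error at so few UMIs could hide a gap, so the counts cannot show whether members are a separate cell type. The members held 57.5% of all Aldh1a2 UMIs of kept cells in L-cDC and 68.3% in M-cDC, and 57.5% and 65.8% of those of Itgb8.

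**Figure D1:**
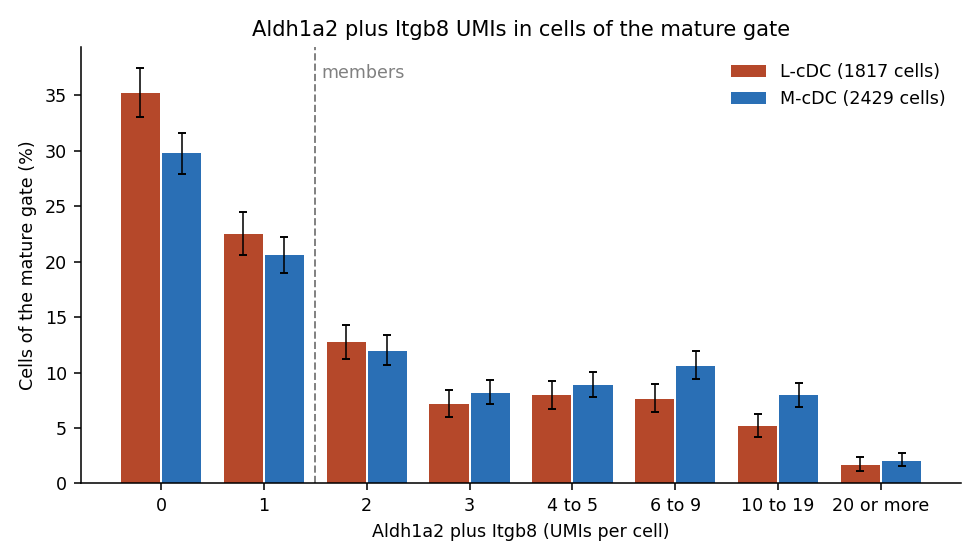
Share of mature-gate cells (%, vertical axis) by the sum of Aldh1a2 and Itgb8 UMIs per cell (horizontal axis) in L-cDC (1817 cells) and M-cDC (2429 cells). Bars are shares, error bars are exact 95% intervals for counting error, and the dashed line marks the threshold of 2 UMIs. L-cDC has the higher bar at 0 (35.2% against 29.8%), M-cDC at 10 to 19 UMIs.

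Aldh1a2 supplied most of these UMIs. Its level in members, which follows from the rule, was 502 CPM (UMIs of a gene per 1000000 UMIs of the pooled cells) in L-cDC and 636 in M-cDC, and that of Itgb8 was 110.5 and 131 CPM. Among members, 66.4% in L-cDC and 60.3% in M-cDC had Aldh1a2 alone, 30.5% and 35.8% had both genes, and 3.13% and 3.90% had Itgb8 alone. The rule leaves out cells with a single UMI, 19 of L-cDC and 32 of M-cDC with Itgb8 alone, so it lowers the last of these shares. To set depth aside, cells of the mature gate were thinned to 3000 UMIs. Itgb8 was then detected in 13.2% of 683 L-cDC cells with an Aldh1a2 UMI (10.7 to 15.9%), against 5.81% of 1085 cells without (4.49 to 7.37%). In M-cDC the shares were 16.04% of 1116 cells (13.9 to 18.3%) against 9.81% of 1264 (8.23 to 11.6%). The Spearman correlation of both genes over single thinned cells was weak, at 0.14 in L-cDC and 0.11 in M-cDC.

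Both genes were low in the cells read for background from free RNA. In L-cDC cells with no Fscn1 and at least 3 UMIs of Nkg7, a gene of cytotoxic lymphocytes, Aldh1a2 stood at 3.02 CPM. It was seen in 3.13% of these 128 cells, whose median depth was 8227 UMIs. Itgb8 was seen in 0 of these 128 cells, which allows a share of up to 2.34% by the limit of 3 counts and up to 2.84% by the exact interval. Leaving out cells with Fscn1 can lower this background, so it may be understated, and M-cDC had no cells of this kind. Immature cells with no Ccr7 and at least 2 UMIs of Xcr1, a receptor of cDC1 (cross-presenting dendritic cells), had 5.63 CPM of Aldh1a2 in L-cDC and 5.86 in M-cDC. Immature cells with no Ccr7 or Xcr1 and at least 2 UMIs of Sirpa, which marks cDC2 (dendritic cells that mainly prime CD4 T cells), had 11.6 and 9.39 CPM. The mature cells that the gate left out were not alike. Those with Il12b, which encodes the p40 chain of interleukins 12 and 23, had 603 CPM of Aldh1a2 in L-cDC and 578 in M-cDC, and 177 and 215 CPM of Itgb8. A sum of at least 2 UMIs was found in 77.6% of these 147 L-cDC cells and 85.1% of these 228 M-cDC cells. In mature cells with 5 or more UMIs of S100a4, a calcium-binding protein gene, Aldh1a2 was at 113 and 151 CPM and 29.1% and 25.7% of cells reached a sum of 2.

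Set against double-negative cells of the same library, members differed in many genes besides those of the rule. This contrast is a description, because the rule chose both groups on their transcripts. Genes were considered if the group with more had 20 CPM or above and both groups together held 50 UMIs or above, and a difference past 1.5-fold was called. In L-cDC 286 of 4493 considered genes were higher in members (6.37%) and 301 were lower (6.7%). In M-cDC 369 of 4533 were higher (8.14%) and 423 lower (9.33%). Counts for the gene lists below are to be read beside these shares. Of 4341 genes considered in both libraries, 218 were higher in both, which is 77.0% of those higher in L-cDC and 65.1% of those higher in M-cDC. Another 231 were lower in both, or 87.5% and 58.6%, and none was called in opposite directions. The log2 ratios of the libraries had a Pearson correlation of 0.88 across these genes, which are not independent replicates. Both libraries were split by the same rule.

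The 4 label markers that the rule did not use were all higher in members of both libraries, although these markers had been picked from these data. Ncoa7, a coactivator of nuclear receptors, stood at 338 CPM in L-cDC members against 77.1 in double-negative cells, and at 488 against 119 in M-cDC. Glipr2, a Golgi-associated protein, was 3.56-fold higher in L-cDC (counting interval 3.26 to 3.89) and 3.43-fold in M-cDC (3.18 to 3.71). Bcl2l14, a member of the BCL2 family, was 2.71-fold and 2.77-fold higher. Laptm4b, a lysosomal membrane protein, had 126 CPM in members against 48.2 in double-negative cells of L-cDC, and 160 against 66.9 in M-cDC.

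The genes furthest apart included membrane and signalling proteins. Cpne8, a copine that binds membranes in the presence of calcium, was at 54.5 CPM in L-cDC members against 2.91 in double-negative cells (18.7-fold, 11.02 to 34.5), and at 40.1 against 5.91 in M-cDC (6.78-fold, 4.62 to 10.3). Cd81, a tetraspanin, was 6.47-fold higher in L-cDC (251 CPM in members) and 5.78-fold in M-cDC (345 CPM). Of kinases, Tnik was 5.86-fold and 5.50-fold higher, and the Src family member Yes1 6.71-fold and 3.01-fold. The G protein subunit Gng12 was 4.51-fold and 4.39-fold higher. A second group handles lipids and glycolipids. Mgll, which cleaves monoacylglycerols including an endocannabinoid, was 3.72-fold higher in L-cDC and 7.37-fold in M-cDC. The acyltransferase Agpat3 was 5.66-fold and 5.23-fold higher, and St3gal5, which makes the ganglioside GM3, 5.97-fold and 2.69-fold. Scin, an actin-severing protein, had ratios of 4.04 and 6.34, and Rad51b, a DNA repair protein, of 4.13 and 5.41. Txndc17, a thioredoxin-like reductant, was the most abundant of these named genes, with 1683 CPM in L-cDC members against 402 in double-negative cells and 2312 against 569 in M-cDC. Mab21l3 and Fgfbp3, a carrier of fibroblast growth factors, completed the highest genes at 6.15-fold and 3.17-fold in L-cDC.

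The 12 genes furthest below double-negative cells encode proteins of several kinds. Fcer1g, the signalling chain of Fc receptors, had 82.4 CPM in L-cDC members against 211 in double-negative cells, and 60.3 against 208 in M-cDC. The interleukin 1 beta gene Il1b stood at 38.1 CPM against 90.9 in L-cDC and at 23.2 against 82.8 in M-cDC. Ido1, which degrades tryptophan and is another tolerance-linked enzyme of dendritic cells, was low throughout, at 15.4 CPM in members against 38.1 in L-cDC and 8.20 against 36.3 in M-cDC. Lair1 (an inhibitory collagen receptor), Ptafr (the receptor of platelet-activating factor) and Klrd1 (a lectin-like receptor chain) were between 2.22-fold and 4.61-fold lower over both libraries. The cyclin gene Ccnd1 and Atp1b1, a sodium pump subunit, were 2.78-fold and 2.85-fold lower in L-cDC. St8sia1, which makes the ganglioside GD3 from GM3, was 2.35-fold lower in L-cDC and 3.85-fold in M-cDC, and Tmem158 and Nxpe4 followed it in direction. The least even gene was Atf7ip2, with 15.3 CPM in members against 27.9 in L-cDC and 3.48 against 25.6 in M-cDC.

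**Figure D2:**
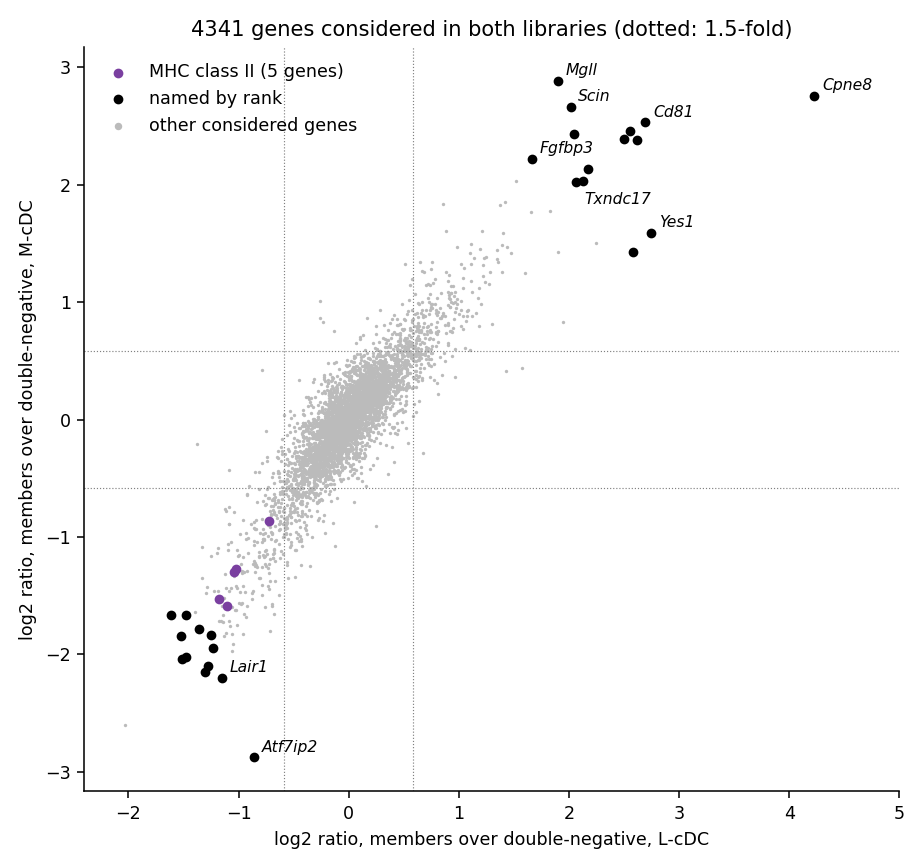
Each point is 1 of 4341 genes considered in both libraries, with the log2 ratio of members over double-negative cells in L-cDC (horizontal axis) and M-cDC (vertical axis). Black points are the genes named by rank, purple points are 5 MHC class II genes, and dotted lines mark 1.5-fold. The points run along the diagonal, and no gene is past 1.5-fold in opposite directions. Cpne8 lies farthest right at 4.23 in L-cDC and 2.76 in M-cDC.

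Most other genes of retinoid metabolism were scarce in these cells. Of 28 listed genes, Aldh1a2 among them, 3 others for retinoic acid synthesis and handling were high enough to be considered, and none was higher in members. Dhrs3, which returns retinaldehyde to retinol, had 40.0 CPM in L-cDC members against 70.3 in double-negative cells and 29.2 against 65.2 in M-cDC. Stra6l, a retinol transporter, had 17.2 against 33.5 CPM in L-cDC and 9.85 against 34.8 in M-cDC. Rdh10, which oxidises retinol to retinaldehyde, was near 1 to 3 CPM in all 4 groups, and of the sister enzymes Aldh1a1 had no UMI in any of them and Aldh1a3 at most 0.416 CPM. A count of 0 allows up to 0.406 CPM in L-cDC members and 0.290 in M-cDC members, and 0.624 and 0.633 in the double-negative cells. The retinoic acid-degrading enzyme Cyp26b1 stood at 0.406 and 0.772 CPM in members of L-cDC and M-cDC, about the level of a few UMIs, and had none in double-negative cells. Of the receptors, Rxrb was at 17.5 CPM against 18.1 in L-cDC, and Rara was at 3.39 against 5.61. Genes known to be linked to retinoic acid were not all on one side. Fabp5, a carrier of fatty acids and retinoic acid, had 925 CPM in members against 1599 in L-cDC and 640 against 1529 in M-cDC, and Asb2 and Ccr9 were lower too, while Ncoa7 was higher. The list of receptors and responses had 1 gene higher and 4 lower of 7 considered in L-cDC (median log2 ratio -0.79) and 1 higher and 3 lower of 6 in M-cDC (-0.85). Medians over all considered genes were -0.02 and 0.02, with 6.37% higher and 6.7% lower in L-cDC and 8.14% and 9.33% in M-cDC.

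The partner of the integrin chain differed little, while the TGF-beta genes read here were low and uneven. Itgav, the alpha v chain, was at 10.7 CPM in L-cDC members against 8.53 in double-negative cells and 9.27 against 10.1 in M-cDC, below the level required for a call. Tgfb1, whose latent protein the integrin binds, had 18.7 against 32.9 CPM in L-cDC and 20.5 against 27.9 in M-cDC, past 1.5-fold in L-cDC. Tgfb2 was below the level required for a call and stood at 9.21 CPM in L-cDC members against 2.91 (3.17-fold, 1.76 to 6.09), and at 8.40 against 1.69 in M-cDC (4.97-fold, 2.41 to 11.9). Smad7, an inhibitor that TGF-beta signalling induces, was lower in both libraries, at 24.9 against 37.6 CPM and 24.6 against 37.8. Of the 6 listed genes considered in each library, none was higher, 2 were lower in L-cDC and 1 in M-cDC. Among all considered genes, 6.37% were higher and 6.7% lower in L-cDC, and 8.14% and 9.33% in M-cDC.

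Most genes of dendritic cell maturation were within 1.5-fold between the groups, which the gate selects on. Of 43 considered genes of the mature list, 7 were higher and none lower in L-cDC, and 9 were higher and 2 lower in M-cDC, with medians of 0.06 and 0.03. In both libraries 7 of 43 were higher, against 218 of 4341 over all genes. The 7 were Ccl22, Ccl17, Cd86, Pdcd1lg2, Zmynd15, Serpinb9 and Spsb1. Ccl22 and Ccl17 encode chemokines that attract Ccr4-bearing T cells. Ccl22 had 637 CPM in L-cDC members against 333 in double-negative cells, and 550 against 329 in M-cDC. Pdcd1lg2 (PD-L2, an inhibitory ligand) was at 71.7 CPM against 36.6 and 88.7 against 46.0, whereas Cd274 (PD-L1) was at 109 against 126 and 113 against 155. Cd86, Cd70 and Slamf1 were the 3 costimulatory ligands higher in both libraries. Fas, a death receptor, was 136 CPM in members against 71.7 in L-cDC and 144 against 68.2 in M-cDC. Of 22 genes of the NF-kB pathway none was higher and 1 lower in L-cDC, and 1 was higher and 3 lower in M-cDC. Over all considered genes, 6.37% were higher and 6.7% lower in L-cDC, and 8.14% and 9.33% in M-cDC.

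Transcripts of most listed genes of antigen presentation by MHC class II stood lower in members in both libraries. Of 13 considered genes, 11 were lower in each library and the same 11 in both, with medians of -1.05 in L-cDC and -1.27 in M-cDC. The share lower over all considered genes was 6.7% in L-cDC and 9.33% in M-cDC. H2-Ab1 had 1475 CPM in L-cDC members against 3331 in double-negative cells and 1262 against 3639 in M-cDC. Its regulator Ciita, the class II transactivator, was at 57.3 against 124 CPM in L-cDC and 47.4 against 143 in M-cDC. The peptide-loading genes H2-DMa and H2-Oa followed, at 2.09-fold and 2.63-fold lower in L-cDC. Lgmn, a lysosomal protease of the same list, was at 162 CPM against 126 in L-cDC and 183 against 145 in M-cDC. Of 23 MHC class I genes considered, none was called in L-cDC and 2 were higher in M-cDC, where 8.14% of all considered genes were higher. H2-K1 stood at 4635 against 4042 CPM in L-cDC.

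Lineage genes were split. Irf8, the transcription factor of cDC1, had 217 CPM in L-cDC members against 128 in double-negative cells and 332 against 131 in M-cDC. Of the cDC1 list, 2 genes were higher and 1 lower of 6 considered in L-cDC, and 9 were higher and 2 lower of 12 in M-cDC. Beside this list and the cDC2 list below, all considered genes gave 6.37% higher and 6.7% lower in L-cDC. In M-cDC they gave 8.14% and 9.33%. Some levels in M-cDC rested on few cells. Wdfy4 had 20.95 CPM in M-cDC members against 13.94, but was seen in 6.39% of members against 6.78%, with up to 25 UMIs in 1 member. Naaa had 25.4 against 12.7 CPM in 7.71% against 6.09% of cells, with up to 29 UMIs in 1 member. Scrublet marked 43 M-cDC members and 10 double-negative cells. Clec9a, a cDC1 receptor for dead cells, was seen in 10.7% of L-cDC members against 1.562% of double-negative cells, and in 13.7% against 3.60% in M-cDC. In immature Sirpa cells with median depths of 11809 and 8243 UMIs, its share was 1.91% in L-cDC and 3.04% in M-cDC. With cells thinned to 3000 UMIs, the median of this list in L-cDC turned from 0.34 to -0.10, while in M-cDC it was 0.67 as reported and 0.59 thinned. The cDC2 list, which holds the rule gene S100a4, had 4 genes lower and none higher of 7 considered in L-cDC, and 5 lower in M-cDC. Sirpa was at 10.2 CPM against 25.6 in L-cDC and 10.5 against 26.8 in M-cDC, and Ltb, which encodes lymphotoxin beta, at 46.2 against 105 and 35.4 against 97.6. The transcription factors Zeb2, Bhlhe40, Nr4a3 and Spib were lower in members of both libraries, with Zeb2 at 87.0 CPM against 195 in L-cDC and 56.7 against 186 in M-cDC. Cd1d1, which presents lipids, and Pla2g7, which inactivates platelet-activating factor, were also lower, at 243 against 420 CPM and 116 against 234 CPM in L-cDC.

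Of the immediate early and stress list, 1 was higher and 6 lower of 24 considered in L-cDC and 3 higher and 7 lower of 23 in M-cDC. All considered genes gave 6.37% higher and 6.7% lower in L-cDC, and 8.14% and 9.33% in M-cDC. Btg2, Fosb and Atf3 were lower in both, with Btg2 at 153 CPM in L-cDC members against 246 in double-negative cells and 120 against 270.0 in M-cDC. The chaperone Hsp90aa1 went the other way, at 358 against 208 CPM and 422 against 185. In the BCL2 family, Pmaip1, which encodes the death-promoting protein NOXA, was at 207 against 349 CPM in L-cDC and 158 against 372 in M-cDC, and Bmf was lower in both. Of the cytokine list, Il1b and Ltb were the 2 genes lower of 4 considered in each library. Of chemokines, Ccl5 was the most abundant, at 6588 CPM against 4664 in L-cDC and 6768 against 4494 in M-cDC, past 1.5-fold in M-cDC. Coro1a, an actin-binding protein, was at 237 against 367 CPM in L-cDC and 209 against 388 in M-cDC.

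Metabolic and interferon genes varied by member. Npc2, which carries cholesterol out of lysosomes, was 2.33-fold higher in L-cDC and 2.49-fold in M-cDC. Of 12 considered genes of cholesterol synthesis in L-cDC, 2 were higher and none lower (median 0.42), led by Idi1 at 525 CPM against 269. In glycolysis Pgk1 and Aldoa were the 2 genes higher in both libraries, with Pgk1 at 110.4 CPM against 47.0 in L-cDC and 139 against 53.6 in M-cDC. The GTPase gene Rhoc was 2.05-fold and 2.31-fold higher. Interferon-stimulated genes had 1 higher and 4 lower of 15 in L-cDC (median -0.43) and 1 higher and 7 lower of 15 in M-cDC (-0.58). For these lists too, the shares over all considered genes were 6.37% higher and 6.7% lower in L-cDC, and 8.14% and 9.33% in M-cDC. Il7r itself was 221 CPM in L-cDC members against 326 in double-negative cells and 195 against 293 in M-cDC.

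Markers of other cell types were scarce in members, apart from genes that mature dendritic cells also express. The summed B cell list was 16.1 CPM in L-cDC members against 27.9 in double-negative cells and 13.6 against 20.7 in M-cDC. The summed neutrophil and erythroid list was below 1 CPM in each group, at 0.542 and 0.193 CPM in members. The macrophage and monocyte list summed to 72.8 CPM against 94.6 in L-cDC and 80.9 against 112 in M-cDC, mostly from Vcam1. The T and NK cell list summed to 6626 CPM against 4711 in L-cDC and 6808 against 4540 in M-cDC, nearly all of it Ccl5, a chemokine of mature dendritic cells too. The T cell receptor complex gene Cd3e was at 0.271 CPM against 1.25 in L-cDC and 0.0965 against 1.27 in M-cDC. The plasma cell and immunoglobulin list summed to 148 CPM against 237 in L-cDC and 90.1 against 191 in M-cDC, mostly from Ighm. Ribosomal protein genes had medians of -0.09 and -0.05 and mitochondrial genes of -0.01 and 0.01.

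**Figure D3:**
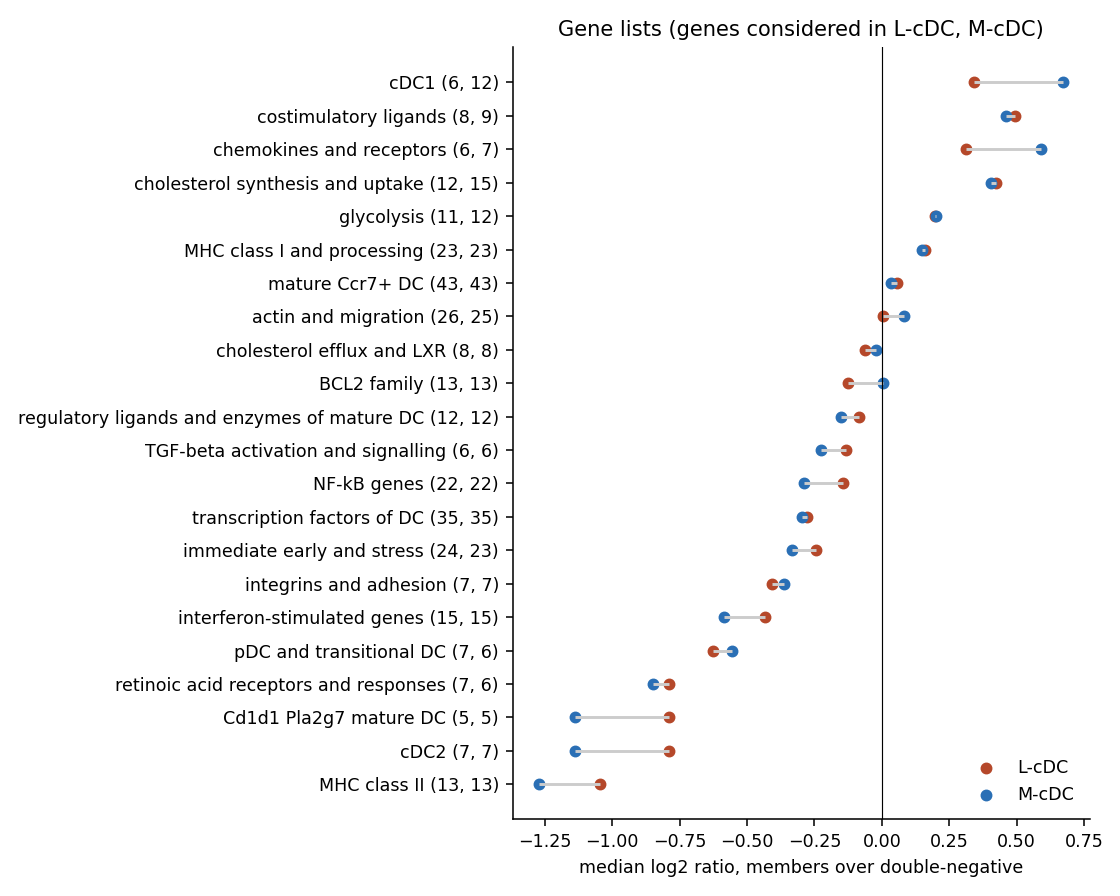
Median log2 ratio of members over double-negative cells (horizontal axis) for gene lists with at least 5 genes considered in both libraries, in L-cDC (red) and M-cDC (blue). The numbers in brackets are the genes considered in L-cDC and in M-cDC. MHC class II lies lowest at -1.05 and -1.27, and the mature list lies near 0.

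Several genes were graded along the number of Aldh1a2 and Itgb8 UMIs. In cells of 5000 to 15000 UMIs, the level of H2-Ab1 in L-cDC was 3413 CPM at a sum of 0, 2881 at 1, 2330 at 2 to 3, 1211 at 4 to 7 and 436 at 8 or more. In M-cDC it was 3637, 2945, 2016, 894 and 472 CPM over the same steps. Txndc17 ran the other way, at 375, 554, 894, 1888 and 2590 CPM in L-cDC and at 579, 768, 1430, 2525 and 3071 in M-cDC. Cells with a single UMI, which were in neither group, lay between the groups for these genes. Il1b was at 92.2, 74.4, 68.5, 19.3 and 7.35 CPM in L-cDC and at 83.1, 88.2, 54.0, 11.9 and 1.71 in M-cDC. Of the genes that the gate requires, Ccr7 was at 1267 CPM at a sum of 0 and 1394 at 8 or more in L-cDC. In M-cDC it was at 1285 and 1566. Fscn1 rose more between these steps, from 1478 to 2351 CPM in L-cDC and from 1541 to 2275 in M-cDC. Ccl22 rose from 312.5 to 961 CPM and from 333 to 734. Irf8 was at 120, 99.1, 124, 209 and 325 CPM in L-cDC and at 132, 126, 173, 263 and 464 in M-cDC, so it was higher from 4 UMIs in L-cDC and from 2 in M-cDC. Ccl17 had no such order in L-cDC, at 65.4, 117, 120, 57.2 and 192 CPM. Median depth also differed along the steps, from 7492 UMIs at 0 to 10863 at 8 or more in L-cDC and from 6868 to 9482 in M-cDC, and its part in the result was not tested beyond this window.

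**Figure D4:**
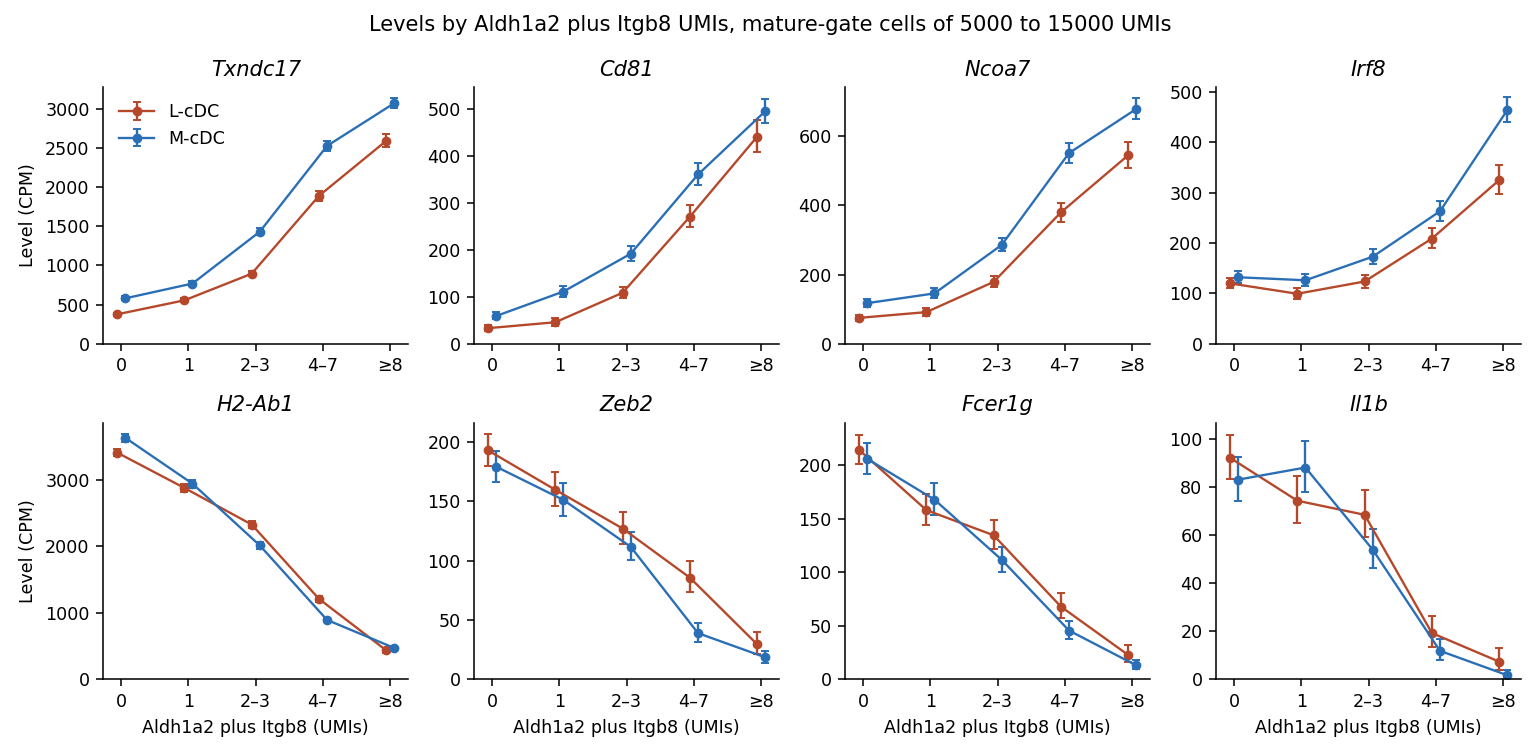
Level in CPM (vertical axes, each from 0) of 8 genes in mature-gate cells of 5000 to 15000 UMIs, by the sum of Aldh1a2 and Itgb8 UMIs (horizontal axes), in L-cDC (red) and M-cDC (blue). Points are pooled levels and bars are exact Poisson 95% intervals for counting error. Txndc17, Cd81, Ncoa7 and Irf8 are highest at 8 or more UMIs, and H2-Ab1, Zeb2, Fcer1g and Il1b are lowest there.

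Genes most like Aldh1a2 over single thinned cells of the gate (1768 in L-cDC and 2380 in M-cDC) were Txndc17, Txn1 (thioredoxin), Cd81, Glipr2, Ncoa7 and Tspo, a mitochondrial membrane protein. Their Spearman correlations with it, averaged over the libraries, were between 0.30 and 0.41. Those most like Itgb8 were Epsti1, Atp2b1 (a calcium pump), Txndc17, Ncoa7, Net1 and Txn1, at 0.21 to 0.26. All cells of a library share its free RNA, and these cells were gated, so the values only describe. Txn1 had 1665 CPM in L-cDC members against 649 in double-negative cells and 1953 against 772 in M-cDC. Epsti1, an interferon-inducible gene, had 3643 against 1686 CPM in L-cDC and 4465 against 1969 in M-cDC.

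Members of L-cDC and M-cDC were close to each other. Of 4348 considered genes, 50 were higher in L-cDC members (1.15%) and 27 were lower (0.621%). Double-negative cells gave similar numbers, 41 higher (0.924%) and 26 lower (0.586%) of 4439. Several genes above 1.5-fold in L-cDC members were ones that stood lower in members than in double-negative cells. Ifitm1, an interferon-induced membrane protein, had 27.6 CPM in L-cDC members against 9.27 in M-cDC members (2.98-fold, 2.33 to 3.84), and 45.3 against 32.3 in double-negative cells. Gpr183, an oxysterol receptor that positions dendritic cells in the spleen, had 127 against 66.4 CPM in members and 278 against 238 in double-negative cells. Cybb, the catalytic subunit of the phagocyte oxidase, had 35.1 against 15.4 CPM in members, and Lst1, Acp5 (an acid phosphatase), Fxyd2 and Mylk (a myosin kinase) were 1.03 to 1.26 higher on the log2 scale. Ppp1r1a, Igsf3 and Slc6a13 were 0.89 to 0.96 higher. Clu, the chaperone clusterin, was also past 1.5-fold in double-negative cells, with 76.0 against 39.3 CPM in members and 56.8 against 30.8 in double-negative cells.

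The sum of Aldh1a2 and Itgb8 UMIs was itself distributed differently, with 22.4% of members at 8 or more in L-cDC against 28.7% in M-cDC. The same genes were therefore also read within steps of the sum, a comparison chosen after the values were seen. At 4 to 7 UMIs (235 L-cDC and 370 M-cDC members), Ifitm1 had 21.8 against 7.24 CPM, Cybb 24.1 against 15.1, Gpr183 83.7 against 49.7 and Lst1 126 against 45.4. The counting intervals of these ratios left out 1, also at 2 to 3 UMIs. They cover counting error only, in pooled cells of 1 library per group, and are too narrow, so they do not test a difference. At 8 or more UMIs the interval of Lst1 left out 1 (1.76-fold, 1.26 to 2.46), whereas those of Cybb (1.81-fold, 0.798 to 4.09) and Gpr183 (1.31-fold, 0.942 to 1.80) included 1. The interval of Ifitm1 left out 1 (4.52-fold, 1.66 to 14.2), but on 15 against 6 UMIs (7.46 against 1.65 CPM). At this step Ifitm1 and Cybb were below the level required for a call. The intervals of Ppp1r1a, Slc6a13 and Igsf3 also included 1 there, while those of Mylk, Acp5, Fxyd2 and Clu did not. H2-Ab1, in contrast, was at 2238 against 2040 CPM at 2 to 3, 1294 against 992 at 4 to 7 and 471 against 697 at 8 or more.

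The 4 label markers outside the rule all had lower values in L-cDC members, and Bcl2l14 was past 1.5-fold. Bcl2l14 had 242 CPM in L-cDC against 386 in M-cDC (log2 ratio -0.67), Ncoa7 had 338 against 488 (-0.53), Laptm4b 126 against 160 and Glipr2 438 against 542. Double-negative cells showed like ratios, -0.64 for Bcl2l14 and -0.63 for Ncoa7. Aldh1a2 and Itgb8, which chose the cells, were at -0.34 and -0.24. Il7r was at 221 CPM in L-cDC members against 195 in M-cDC members (1.13-fold, 1.06 to 1.21), although the sort was on a record of Il7r expression. The transcript of tdTomato was not among the features counted. Gt(ROSA)26Sor, the locus that carries the reporter, was at 13.3 against 20.5 CPM in members and at 14.4 against 19.2 in double-negative cells.

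The genes lowest in L-cDC members included genes of cDC1. Of 11 considered genes of the cDC1 list, none was higher and 7 were lower, with a median log2 ratio of -0.68. Over all considered genes the median was -0.04, and 1.15% were higher and 0.621% lower. Xcr1 had 7.32 CPM in L-cDC members against 21.0 in M-cDC members, and was seen in 5.86% against 8.87% of them. Cells of L-cDC with 3 or more Nkg7 UMIs, no Fscn1 and a median of 8227 UMIs showed it in 3.91%. Median depths were 9364 in L-cDC members and 8070 in M-cDC members. Naaa, a lipid amidase, had 5.55 against 25.4 CPM and Wdfy4, required for cross-presentation, 5.55 against 20.9. Double-negative cells differed the same way at levels too low for a call. Xcr1 was at 4.37 CPM in L-cDC against 8.02 in M-cDC, Naaa at 6.24 against 12.7, Wdfy4 at 5.82 against 13.9 and Clec9a at 2.29 against 7.39. Immature Xcr1 cells were 4.16% of kept cells in L-cDC and 11.5% in M-cDC, and their part in these differences was not tested. The Nkg7 cells of L-cDC had 16.6 CPM of Xcr1, 46.8 of Naaa and 25.7 of Wdfy4, all above the L-cDC members, with up to 15, 42 and 13 UMIs in 1 cell. The UMIs of Naaa and Wdfy4 were also concentrated in members, with up to 29 of Naaa and 25 of Wdfy4 in 1 M-cDC member. Removing the cells that Scrublet marked as doublet-like moved Naaa from a log2 ratio of -2.19 to -1.14, Wdfy4 from -1.91 to -1.05, Xcr1 from -1.52 to -0.90 and the median of the list from -0.68 to -0.13. The same removal moved Plbd1, Ly6e and the histone gene Hist1h1b from -1.28, -0.99 and -0.93 to -0.59, -0.33 and -0.32. Irf8 was less affected, at -0.62 with these cells and -0.53 without, and so was Mpeg1, a pore-forming protein of phagocytes, at -0.89 and -0.82. Clec9a moved from -0.85 to -0.70, Serpinb1a, a protease inhibitor, from -0.78 to -0.85 and B3gnt5, a glycolipid synthase, from -1.07 to -1.15. Ckb, a creatine kinase, and Pid1 stood at -1.38 and -0.81. Without the marked cells, 59 genes were higher and 17 lower in L-cDC members.

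**Figure D5:**
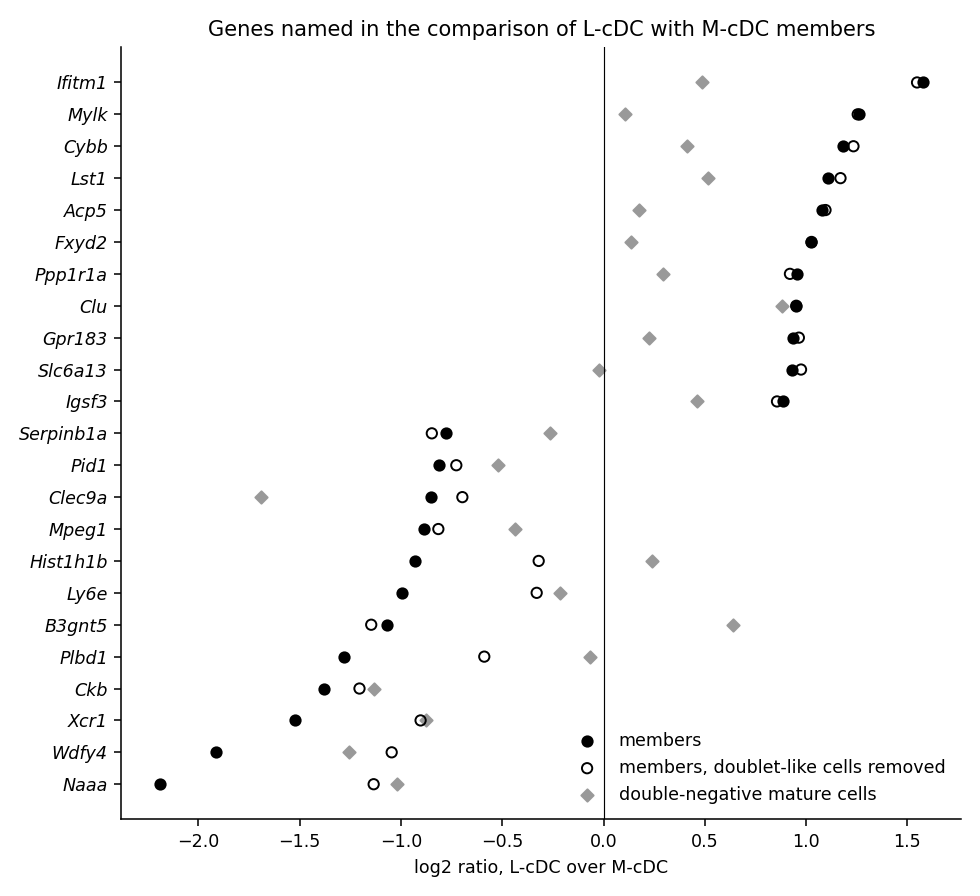
Log2 ratio of L-cDC over M-cDC (horizontal axis) for the genes named in this comparison, in members (filled circles), in members without doublet-like cells (open circles) and in double-negative mature cells (grey diamonds). Open and filled circles nearly coincide for the genes higher in L-cDC. They lie apart for Naaa, Wdfy4, Xcr1, Plbd1, Ly6e and Hist1h1b.

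The immunoglobulin light chain gene Igkc differed between the libraries in both groups of mature cells. It stood at 17.3 CPM in L-cDC members against 0.579 in M-cDC members, and at 19.5 against 0.633 in double-negative cells. The heavy chain gene Ighm differed less, at 85.2 against 52.2 CPM in members and 157 against 146 in double-negative cells. Cells with at least 3 UMIs of the B cell gene Cd79a and none of Ccr7 or Fscn1 numbered 12 in L-cDC, and M-cDC had none. The part of free RNA in the Igkc difference was not tested.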

How the data were processed

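Each library was deposited as a matrix of raw counts, 1 UMI count for each gene in each barcode. Cell Ranger 6.1.2 is named by the file headers, and GRCm38 (mm10) by the submitters' processing notes. The other deposited files hold barcodes and 31053 gene names,. L-cDC held 4939 barcodes and 40170515 UMIs, M-cDC 6674 and 52973960. Barcodes with at least 500 genes and at most 10% mitochondrial UMIs were kept. Doublet scores came from Scrublet (expected doublet rate 0.08). The thresholds it set itself marked 3 L-cDC cells (0.632) and 241 M-cDC cells (0.277), so the lower was applied to both as an alternative, marking 123 and 241; the main results keep all cells.

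UMIs were summed per group and scaled to CPM with exact Poisson 95% intervals, and ratios have exact conditional binomial intervals. UMIs of a gene gather in single cells, so these intervals, which cover counting error only, are too narrow. A group at 0 was set to a floor of 3 counts for ratios. With 1 library per group the values have no test and no replicate could be left out. Members and gene lists were chosen with earlier results of these data known. The text names the 16 highest genes, counting Aldh1a2 and Itgb8 of the rule, and the 12 lowest past 1.5-fold in both libraries, the 12 highest and 12 lowest of L-cDC over M-cDC members, up to 4 genes per list with the largest ratios, the rule genes, the label markers, Il7r, Gt(ROSA)26Sor, and the 6 genes most like Aldh1a2 and Itgb8 by Spearman correlation. These ranks skip gene models and genes of immunoglobulins, T cell receptors, hemoglobin, ribosomal proteins, mitochondria and the sex chromosomes named in the rule. Other genes of the retinoid, TGF-beta and lineage lists, and Lgmn, Cd274, H2-K1, Cd3e, Ighm and Igkc, were named after their values were seen. Some results the rule would name are not reported here. Of 32 gene lists, 4 of 641 genes were absent from the files. Coordinates came from GENCODE M21 by Ensembl identifier, where 679 of 679 were found. The calculation was tested on simulated data. Scripts ran with scanpy 1.11.5, pandas 2.3.3, matplotlib 3.10.9, scipy 1.17.1 and numpy 2.4.6 under Python 3.11.15.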

Additional observations from a re-analysis of the deposited data

How the results depend on the processing

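No gene ratio past 1.5-fold changed sign under the alternatives run, while 27 of 3550 recomputed gene ratios did, all of them at 0.29 or less on the log2 scale as reported. List medians were less stable, with 52 sign changes in 900 values. The cytokine list, with 4 genes considered, changed from -0.49 to as high as 0.20 in L-cDC and from -0.68 to 0.21 in M-cDC, the cDC1 list in L-cDC from 0.34 to -0.10 in thinned cells, and the TGF-beta list in L-cDC from -0.13 to 0.06 at 5 CPM and 0.08 at 50 CPM. The share of kept cells that were members was 20.04% in L-cDC at 1000 or more genes per cell. With a sum of at least 1, at least 4, or the whole rule applied to cells thinned to 3000 UMIs, it was 28.8%, 9.96% and 8.70% in L-cDC and 29.2%, 12.2% and 11.4% in M-cDC, so the share is set by the threshold and by depth. Genes past 1.5-fold between members and double-negative cells numbered 587 in L-cDC and 792 in M-cDC. In L-cDC they were 1017 with members at a sum of 4 or more, 1339 at a minimum of 5 CPM and 296 at 50 CPM, and in M-cDC 1730 at 5 CPM and 418 at 50 CPM. Between L-cDC and M-cDC members, 77 genes became 141 in thinned cells, 389 at 5 CPM and 33 at 50 CPM, since more or fewer genes were considered; the cause for thinned cells was not tested. Of the 77 calls, 44 kept their call in thinned cells and 64 without doublet-like cells. No paired analysis was possible because each group had 1 library, and leaving out a replicate was likewise not possible.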
